A study of Homo sapiens with 6 samples.

Results

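Cholesterol synthesis, uptake and efflux genes were examined in 786-O cells, an established line of human renal carcinoma of the clear cell type, in which VHL is lost. The genes were 29 named members of this pathway, taken by symbol from the deposited table of 58395 genes, and all 29 were found there. Expression had been measured by RNA sequencing in 6 libraries. Of these, 3 came from cells carrying a control guide (sgControl) and 3 from cells in which PLOD2, the gene of the collagen lysyl hydroxylase LH2, had been targeted with CRISPR/Cas9 (sgPLOD2). Both groups were kept in the same serum-containing medium, per the labels' protocols. The labels do not say if the cells were a clone or a pool, or if each library had its own culture. The p-values therefore cover only library-to-library spread. In bulk RNA, a lower level in every cell and fewer cells with the transcript cannot be told apart.

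Cholesterol is built from acetyl-CoA by way of mevalonate, farnesyl diphosphate, squalene and lanosterol, each step with its own enzyme in the cytosol or the endoplasmic reticulum. The transcription factor SREBP-2, encoded by SREBF2, raises most of these enzymes together when sterols are scarce, and SCAP and the INSIG proteins hold it back when sterols are plentiful. Cholesterol taken up from lipoproteins leaves lysosomes by NPC2 and NPC1, is stored as esters made by SOAT1, and leaves the cell by ABC transporters that oxysterol-activated LXR receptors induce. Clear cell renal carcinoma is known for cells filled with lipid and cholesterol esters.

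SREBP-2 acts on promoters together with NF-Y, which binds the CCAAT box, so the 250 bases upstream of each RefSeq start (GRCh38.p14) were searched for CCAAT and for the sterol element TCACNCCAC on both strands, with overlapping matches counted. Promoter entries were found for 25 of the 29 members. CCAAT occurred upstream of 19 of these 25 genes (76.0%), against 41.78% of 7824 tested genes with an entry and 32.01% of all 35116 entries. At least 2 CCAAT matches were found for 12 members (48.0%), against 15.64% of tested genes. The sterol element occurred in 1 member, SREBF2 (4.0%), against 1.16% of tested genes and 0.88% of all entries. Only exact matches to its letters were counted, so elements that depart from them would be missed. No base was shared between the 2 motifs in any member. The windows shown belong to 4 genes of the pathway that were lower in sgPLOD2 (MSMO1, NSDHL, MVD, FDPS), to SREBF2, which was lower and holds the sterol element, and to CYP51A1, which was higher and had neither motif. Capitals mark matches to either motif, read 5′ to 3′ on the strand of the gene. MSMO1 lies at chr4:165327419-165327668 on the plus strand, NSDHL at chrX:152830813-152831062 (plus), MVD at chr16:88663092-88663341 (minus), FDPS at chr1:155308616-155308865 (plus), SREBF2 at chr22:41832855-41833104 (plus) and CYP51A1 at chr7:92134478-92134727 (minus).
MSMO1: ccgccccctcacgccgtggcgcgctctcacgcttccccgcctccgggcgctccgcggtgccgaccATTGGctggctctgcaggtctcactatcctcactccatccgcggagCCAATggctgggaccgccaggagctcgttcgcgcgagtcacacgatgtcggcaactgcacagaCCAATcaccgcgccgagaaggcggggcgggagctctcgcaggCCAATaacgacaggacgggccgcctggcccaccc
NSDHL: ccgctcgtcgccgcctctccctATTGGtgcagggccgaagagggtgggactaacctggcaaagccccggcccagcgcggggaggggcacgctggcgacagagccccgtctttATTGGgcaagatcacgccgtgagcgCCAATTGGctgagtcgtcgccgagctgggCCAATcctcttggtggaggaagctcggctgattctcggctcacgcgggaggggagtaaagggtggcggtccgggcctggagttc
MVD: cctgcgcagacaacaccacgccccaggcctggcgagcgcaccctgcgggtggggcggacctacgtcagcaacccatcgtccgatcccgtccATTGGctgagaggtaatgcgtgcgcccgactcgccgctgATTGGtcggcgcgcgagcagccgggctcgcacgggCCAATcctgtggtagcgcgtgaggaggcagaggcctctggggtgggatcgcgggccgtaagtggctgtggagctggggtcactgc
FDPS: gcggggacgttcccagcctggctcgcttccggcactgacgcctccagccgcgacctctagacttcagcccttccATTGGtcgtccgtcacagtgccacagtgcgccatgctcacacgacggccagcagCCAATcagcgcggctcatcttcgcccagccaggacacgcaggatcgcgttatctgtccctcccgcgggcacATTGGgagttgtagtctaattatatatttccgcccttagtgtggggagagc
SREBF2: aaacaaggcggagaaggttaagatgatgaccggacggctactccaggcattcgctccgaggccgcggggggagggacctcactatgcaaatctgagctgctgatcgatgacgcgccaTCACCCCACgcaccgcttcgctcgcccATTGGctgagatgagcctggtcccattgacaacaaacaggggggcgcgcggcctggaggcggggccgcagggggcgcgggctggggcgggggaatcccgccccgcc
CYP51A1: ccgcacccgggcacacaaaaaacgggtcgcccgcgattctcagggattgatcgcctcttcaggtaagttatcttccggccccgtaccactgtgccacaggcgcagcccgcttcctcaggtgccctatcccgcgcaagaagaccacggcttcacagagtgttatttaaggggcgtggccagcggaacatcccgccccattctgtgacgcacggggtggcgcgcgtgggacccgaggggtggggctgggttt
MSMO1 had 4 CCAAT matches, the nearest starting 34 bases before the start and the farthest 185. NSDHL had 5, from 84 to 228 bases upstream, and MVD and FDPS had 3 each. In SREBF2 the sterol element began 133 bases upstream and a CCAAT match 106 bases upstream. CCAAT was present in 6 of the 8 members called lower, in 3 of the 5 called higher and in 8 of the 10 not called, so its presence did not separate the directions described next.

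The labels were checked first. PLOD2 had 26.8, 25.7 and 21.5 FPKM (mapped fragments scaled to gene length and to the size of the library) in sgControl and 5.98, 10.1 and 6.64 FPKM in sgPLOD2. The groups did not overlap, and the limma log2 fold change was -1.61 ± 0.18 (SE, adjusted p = 0.000509). By an exact permutation test (2-sided) p was 0.1, and 3 libraries against 3 can reach no smaller value. FPKM summed to between 229485 and 268612 per library, absolute depth is unknown, and mitochondrial genes took 12.9% of FPKM in sgControl replicate 1, which stood apart, and 6.01% to 7.5% in the others. HIF1A, whose protein 786-O cells are known to lack, had 0.311 to 0.539 FPKM in sgControl, against 35.6 to 39.1 FPKM in sgPLOD2, and lies on chromosome 14 as NPC2 does. All 10 renal markers examined reached 1 FPKM in at least 1 group, while 0 of 6 leukocyte and 0 of 5 endothelial markers did. Of 6 fibroblast markers only COL1A1 did, and the summed level of that list was 0.691 to 0.978 FPKM in sgControl, against 3.15 to 3.61 FPKM in sgPLOD2, with DCN at 0. The summed leukocyte markers had 0.138 to 0.167 and 0.240 to 0.5005 FPKM (CD3E at 0), and the endothelial markers 0.0290 to 0.0447 and 0.0911 to 0.161 FPKM (VWF at 0). The renal markers summed to 254 to 278 and 225 to 279 FPKM. Any other difference between the cell populations and the effect of the guide cannot be told apart, and the part of these differences in the values below was not tested.

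The cholesterol pathway did not move as a unit. Enzymes between mevalonate and farnesyl diphosphate were lower or not called, and the C4-demethylation enzymes MSMO1 and NSDHL fell most. The thiolase ACAT2, the cyclase LSS, the lanosterol demethylase CYP51A1, the reductase DHCR7, the lysosomal protein NPC2 and the efflux pump ABCA1 were higher. Each of these higher calls was lost in at least 1 of the alternative fits described below. The 5 members whose calls held in every alternative that tested them were all lower (PMVK, MVD, MSMO1, INSIG2 and SOAT1). Of the 29 members, 26 reached a mean of 1 FPKM and were tested with limma on log2(FPKM + 1), with Benjamini-Hochberg adjustment over all 10469 genes tested and a threshold of 0.05. Of these 26, 6 rose, 9 fell and 11 were not called, which makes 57.7% called against 52.9% of all genes tested. By direction, the background was 29.5% higher and 23.5% lower. The counts by role given below hold few genes each, and no role was tested as a set. The members' share of calls was thus near the background, and their median log2 fold change was -0.15 against 0.06 over all genes tested. Groups did not overlap in 17 of the 26 (7 higher and 10 lower), against 62.7% of all genes tested (34.7% higher and 28% lower).

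**Figure D1:**
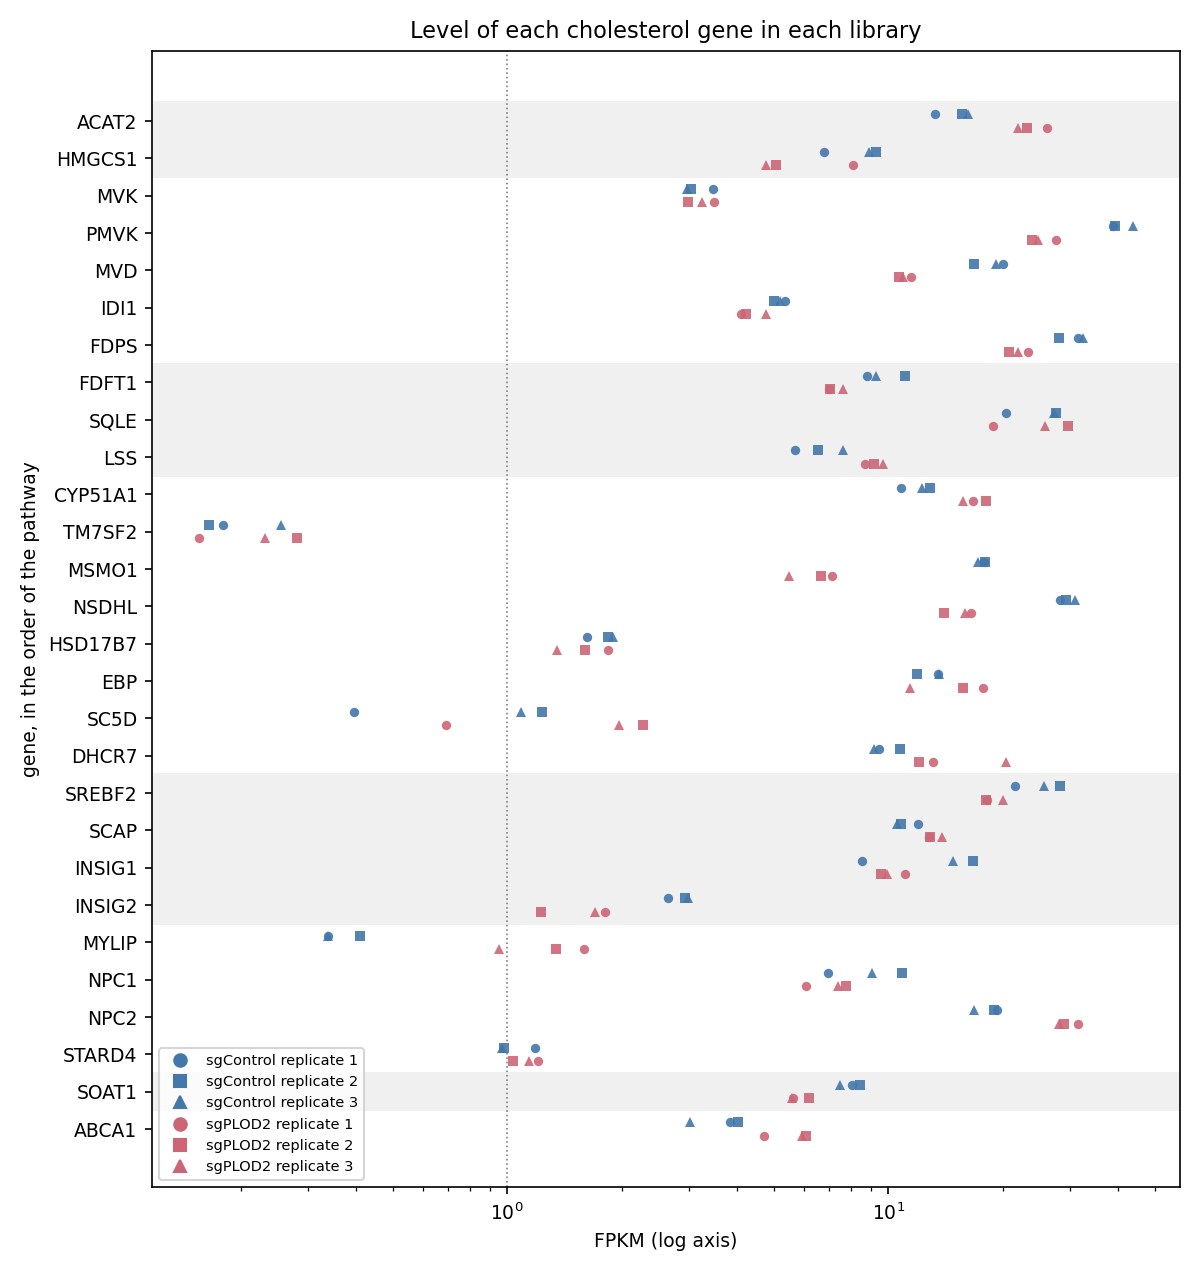
FPKM of 28 cholesterol genes in each library on a log axis, in pathway order with grey bands between roles (blue, sgControl; red, sgPLOD2; symbols give the replicate; the dotted line is 1 FPKM; ABCG1, listed at 0 everywhere, is left out). The libraries of both groups separate for MSMO1, NSDHL, PMVK and MVD, and lie intermixed for SQLE, MVK and EBP.

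Sterol enzymes were expressed over a wide range. In sgControl, PMVK was the most abundant member (40.7 ± 2.76 FPKM, SD, n = 3), followed by FDPS (30.7 ± 2.28 FPKM) and NSDHL (29.4 ± 1.305 FPKM). FDPS and NSDHL did not differ beyond their spread. SQLE and SREBF2 had equal mean levels of 25.1 FPKM, with SDs of 4.06 and 3.40 FPKM. In sgPLOD2, NPC2 was the most abundant (29.5 ± 1.81 FPKM), followed by PMVK (25.4 ± 1.92 FPKM) and SQLE (24.8 ± 5.50 FPKM), which did not differ beyond their spread. The summed FPKM of the 18 synthesis enzymes was 236, 248 and 259 in sgControl and 213, 207 and 208 in sgPLOD2. As a share of all FPKM these sums were 0.0879% to 0.102% in sgControl and 0.0890% to 0.0905% in sgPLOD2, and on that scale the groups overlapped through sgControl replicate 1, the library with the high mitochondrial share. Without it every sgControl share lay above every sgPLOD2 share.

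Of the 2 members at the entry of the pathway, 1 rose and 1 was not called. ACAT2, the cytosolic thiolase that joins acetyl-CoA units (GRCh38, chromosome 6, 159760328 to 159779055, plus strand), had 13.3, 15.6 and 16.2 FPKM in sgControl, against 26.2, 23.1 and 21.9 FPKM in sgPLOD2. Every sgPLOD2 library lay above every sgControl library, with a log2 fold change of 0.63 ± 0.11 (SE, limma adjusted p = 0.00283). The end of ACAT2 overlaps TCP1 on the opposite strand, and TCP1, a chaperonin subunit, also rose by 0.51. Without a stated strand setting, reads of the 2 genes cannot be told apart in the short stretch where they overlap. HMGCS1, which makes HMG-CoA, had 6.77, 9.26 and 8.88 FPKM in sgControl, against 8.10, 5.09 and 4.78 FPKM in sgPLOD2. The groups overlapped through replicate 1 of each, and HMGCS1 was not called (log2 fold change -0.43, 95% interval -0.89 to 0.03, adjusted p = 0.102). It was called lower without sgPLOD2 replicate 1 (log2 fold change -0.64, adjusted p = 0.0173) and after removal of the GC and length trend (-0.68, 0.0270).

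Of the 5 enzymes from mevalonate to farnesyl diphosphate, 3 fell, 0 rose and 2 were not called, with a median log2 fold change of -0.46. PMVK, phosphomevalonate kinase (chromosome 1, 154924734 to 154936991, minus strand), had 38.9, 39.5 and 43.9 FPKM in sgControl, against 27.6, 23.9 and 24.7 FPKM in sgPLOD2. The groups were clearly apart, and the log2 fold change was -0.66 ± 0.09 (adjusted p = 0.00112). MVD, the decarboxylase that follows it (chromosome 16, 88651935 to 88663161, minus strand), had 20.0, 16.7 and 19.2 FPKM against 11.4, 10.7 and 10.9 FPKM. The sgPLOD2 libraries were both lower and closer to each other (CV 3.67% against 9.17%), and MVD fell by 0.71 (adjusted p = 0.000887). FDPS, farnesyl diphosphate synthase (chromosome 1, 155308748 to 155320666, plus strand), had 31.5, 28.1 and 32.4 FPKM against 23.3, 20.8 and 21.9 FPKM and fell by 0.46 (adjusted p = 0.00471). After removal of the GC and length trend FDPS was not called (-0.24, 0.0608). IDI1, the isomerase, had 5.37, 5.00 and 5.20 FPKM against 4.11, 4.25 and 4.79 FPKM. Its groups did not overlap, but it was not called (log2 fold change -0.20, adjusted p = 0.0913). IDI1 was called lower under quantile normalization (-0.33, 0.0226) and after removal of the GC and length trend (-0.43, 0.00784). MVK, mevalonate kinase, had 3.15 ± 0.269 and 3.24 ± 0.251 FPKM (SD, n = 3 each), with a log2 fold change of 0.03 and a 95% interval of -0.19 to 0.25.

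The 3 enzymes from farnesyl diphosphate to lanosterol held 1 that fell, 1 that rose and 1 that was not called. FDFT1, squalene synthase (chromosome 8, 11795573 to 11839309, plus strand), had 8.77, 11.0 and 9.31 FPKM in sgControl, against 7.01, 7.05 and 7.60 FPKM in sgPLOD2. FDFT1 fell by 0.38 (adjusted p = 0.0191), but not past the threshold without sgPLOD2 replicate 1 (0.0633) or 2 (0.0646) or with FPKM rescaled to TPM (0.122). SQLE, squalene epoxidase and a rate-limiting step, had 20.4, 27.6 and 27.3 FPKM against 18.9, 29.7 and 25.8 FPKM. Replicate 1 was the lowest SQLE library in both groups, the groups lay on top of each other, and the 95% interval of the log2 fold change was -0.47 to 0.41. LSS, lanosterol synthase (chromosome 21, 46188141 to 46228824, minus strand), had 5.69, 6.52 and 7.62 FPKM against 8.70, 9.16 and 9.67 FPKM. LSS rose by 0.43 (adjusted p = 0.0168), and the call was lost without sgPLOD2 replicate 2 (0.0530) or 3 (0.0595).

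After lanosterol, neighbouring steps went apart. CYP51A1, which removes the C14 methyl group (chromosome 7, 92112151 to 92134803, minus strand), had 10.8, 12.9 and 12.3 FPKM in sgControl, against 16.7, 18.1 and 15.7 FPKM in sgPLOD2. It was higher in every sgPLOD2 library, with a log2 fold change of 0.46 ± 0.10 (adjusted p = 0.00708), and was not called with the trend on GC content and transcript length removed (0.0697). MSMO1, the oxidase that starts removal of the C4 methyl groups (chromosome 4, 165327623 to 165343160, plus strand), had 17.9, 17.9 and 17.2 FPKM against 7.11, 6.68 and 5.50 FPKM. Thus 36.4% of the control level remained, and this was the largest change of any tested member (log2 fold change -1.34 ± 0.10, adjusted p = 9.71e-05). NSDHL, the decarboxylating dehydrogenase of the same C4-demethylation complex (chromosome X, 152830967 to 152869729, plus strand), had 28.2, 29.2 and 30.8 FPKM against 16.5, 14.0 and 15.9 FPKM. All sgPLOD2 libraries lay far below all sgControl libraries, at 52.5% of control on average, and the log2 fold change was -0.89 ± 0.09 (adjusted p = 0.000314). HSD17B7, the ketoreductase of that complex, whose reads may be shared with a pseudogene copy, had 1.79 ± 0.150 and 1.59 ± 0.242 FPKM and was not called (log2 fold change -0.11, 95% interval -0.34 to 0.13).

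The last steps were higher or not called. DHCR7, the reductase that completes cholesterol (chromosome 11, 71428193 to 71452868, minus strand), had 9.45, 10.8 and 9.20 FPKM in sgControl, against 13.1, 12.04 and 20.3 FPKM in sgPLOD2. Replicate 3 of sgPLOD2 lay far above the other libraries. DHCR7 was called (log2 fold change 0.55 ± 0.19, adjusted p = 0.0411), but its adjusted p was 0.0538 to 0.103 without sgPLOD2 replicate 1 or any 1 of the sgControl libraries. Without sgPLOD2 replicate 3 its log2 fold change was 0.33 (adjusted p = 0.0515). DHCR7 also lost its call with no filter on low values (0.105), median-of-ratios scaling (0.0675) and quantile normalization (0.0502). The isomerase gene EBP had 13.5, 11.9 and 13.6 FPKM against 17.7, 15.7 and 11.4 FPKM, overlapped and was not called (adjusted p = 0.400). SC5D, the C5 desaturase, had 0.396, 1.23 and 1.09 FPKM against 0.691, 2.28 and 1.96 FPKM. As for SQLE, replicate 1 was the lowest library of SC5D in both groups, and the 95% interval of its log2 fold change was wide, -0.22 to 1.11. Without sgPLOD2 replicate 1, SC5D was called higher (0.74, adjusted p = 0.0329), but it reached the mean of 1 FPKM only through sgPLOD2, and that call supports no direction. TM7SF2, a C14 sterol reductase, lay below the filter at 0.199 ± 0.0481 and 0.222 ± 0.0632 FPKM.

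**Figure D2:**
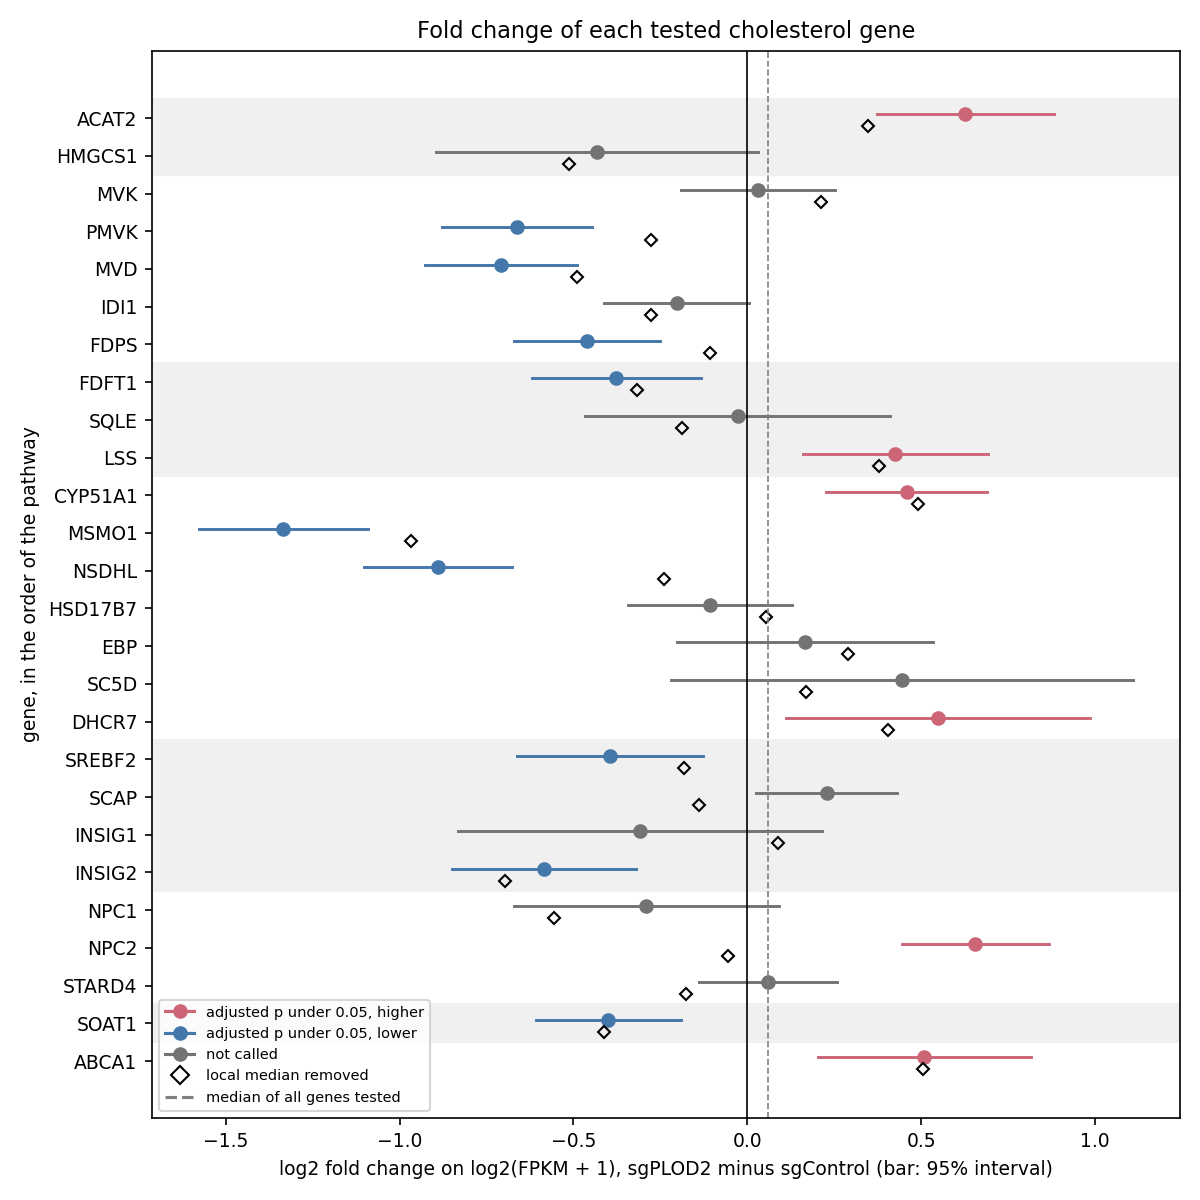
Log2 fold change of the 26 tested cholesterol genes, sgPLOD2 minus sgControl, with 95% intervals (red, called higher; blue, called lower; grey, not called); open diamonds give the fold change after removal of the median of the genes within 5 Mb. MSMO1 lies farthest left at -1.34 and at -0.97 after that removal, while NPC2 goes from 0.66 to -0.06.

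Among the regulators of sterol synthesis, 2 fell, 0 rose and 2 were not called. SREBF2, which encodes the transcription factor SREBP-2 (chromosome 22, 41833079 to 41907308, plus strand), had 21.4, 28.2 and 25.6 FPKM in sgControl, against 18.2, 18.1 and 20.0 FPKM in sgPLOD2. SREBF2 fell by 0.39 (adjusted p = 0.0231), and the call was lost without any 1 of sgControl replicates 2 and 3 and sgPLOD2 replicates 1 and 2 (0.0620 to 0.0759), under TPM (0.147) and with no filter on low values (0.0509). INSIG2, an anchor that keeps SCAP in the endoplasmic reticulum (chromosome 2, 118088452 to 118110997, plus strand), had 2.65, 2.92 and 2.98 FPKM against 1.81, 1.22 and 1.70 FPKM. Its level was 55.4% of control, and the log2 fold change was -0.59 ± 0.11 (adjusted p = 0.00446). INSIG1, the anchor gene that SREBP-2 itself induces, had 8.53, 16.7 and 14.8 FPKM against 11.1, 9.57 and 9.95 FPKM. The INSIG1 value of sgControl replicate 1, the library rich in mitochondrial transcripts, lay below all sgPLOD2 values, and without it INSIG1 was called lower (log2 fold change -0.58, adjusted p = 0.00350, against -0.31 and 0.276 with it). SCAP, the escort protein of SREBP-2, had 11.99, 10.8 and 10.5 FPKM against 12.8, 12.9 and 13.9 FPKM. SCAP libraries did not overlap between groups, but its adjusted p was 0.0586 (log2 fold change 0.23). SCAP was called higher without sgControl replicate 1 (0.28, 0.0236), under TPM (0.37, 0.0130) and after removal of the GC and length trend (0.37, 0.0117), while removal of chromosome or local medians gave -0.10 and -0.14.

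Genes of uptake and transfer rose or were not called. NPC2, which binds cholesterol inside lysosomes (chromosome 14, 74476192 to 74494177, minus strand), had 19.3, 18.9 and 16.8 FPKM in sgControl, against 31.5, 28.9 and 28.1 FPKM in sgPLOD2. It rose by 0.66 ± 0.09 on the log2 scale (adjusted p = 0.00109). NPC2 overlaps ISCA2 on the opposite strand, which rose by 0.58. NPC1, the membrane protein that takes over from NPC2, had 6.94, 10.9 and 9.06 FPKM against 6.07, 7.74 and 7.38 FPKM. NPC1 was not called (log2 fold change -0.29, adjusted p = 0.170), except without sgControl replicate 1 (-0.44, adjusted p = 0.0248) and in both corrections by position described below. NPC1 overlaps RMC1 on the opposite strand, which fell by 0.41. MYLIP, a ubiquitin ligase that marks lipoprotein receptors for breakdown and is an LXR target, averaged under 1 FPKM over all libraries and was not tested. MYLIP had 0.339, 0.411 and 0.339 FPKM in sgControl, against 1.59, 1.34 and 0.950 FPKM in sgPLOD2, without overlap. With no filter on low values its log2 fold change was 0.74 (adjusted p = 0.00877), and the tested genes within 5 Mb had a median of 0.45. STARD4, a soluble sterol carrier, had 1.04 ± 0.121 and 1.13 ± 0.0835 FPKM, with a 95% interval of the log2 fold change of -0.14 to 0.26. After removal of the GC and length trend, however, STARD4 was called lower (log2 fold change -0.41, adjusted p = 0.00725).

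For storage and efflux, SOAT1 fell and ABCA1 rose, each the only tested gene of its role. SOAT1, which esterifies cholesterol for lipid droplets (chromosome 1, 179293714 to 179358680, plus strand), had 8.05, 8.44 and 7.46 FPKM in sgControl, against 5.62, 6.20 and 5.60 FPKM in sgPLOD2. The groups were apart, and SOAT1 fell by 0.40 (adjusted p = 0.00804). ABCA1, which exports cholesterol to lipid-poor apolipoprotein (chromosome 9, 104781002 to 104928237, minus strand), had 3.85, 4.02 and 3.02 FPKM against 4.73, 6.09 and 5.95 FPKM. ABCA1 rose by 0.51 ± 0.13 on the log2 scale (adjusted p = 0.0143). That call was lost without sgPLOD2 replicate 2 (0.0562) or 3 (0.0543), and after removal of the GC and length trend the log2 fold change of ABCA1 was -0.01. ABCG1, an efflux pump for mature lipoprotein, was listed at 0 in all 6 libraries.

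Several members moved together with the genes around them. The median log2 fold change of the other tested genes within 5 Mb was 0.71 around NPC2 (55 genes), as high as NPC2 itself at 0.66, and chromosome 14 as a whole had a median of 0.54. Around NSDHL it was -0.65 (61 genes) against -0.89 for the gene, although the median of the whole X chromosome was -0.01. Around PMVK and FDPS, which lie near each other on chromosome 1, it was -0.38 and -0.35 (127 and 126 genes). Around MSMO1 it was -0.37, over only 12 genes. Around ABCA1, CYP51A1, LSS and SOAT1 it was between -0.03 and 0.05. With these local medians removed, an alternative chosen after seeing the data, 10 of the 15 called members were called in the same direction. MSMO1 (log2 fold change -0.97, adjusted p = 0.000492), INSIG2 (-0.70, 0.00285), MVD (-0.49, 0.00534), SOAT1 (-0.41, 0.00904) and PMVK (-0.28, 0.0438) were among them. NSDHL (-0.24, 0.0661), FDPS (-0.11, 0.365), SREBF2 (-0.18, 0.232), DHCR7 (0.40, 0.119) and NPC2 (-0.06, 0.649) were not called then. IDI1 (-0.28, 0.0408) and NPC1 (-0.55, 0.0295) were called lower in that fit. With whole-chromosome medians removed instead, ACAT2 (0.28, 0.0684), DHCR7 (0.36, 0.154), SREBF2 (-0.18, 0.223) and NPC2 (0.12, 0.327) lost their calls, leaving 3 members higher and 11 lower. In that fit HMGCS1, IDI1 and NPC1 were called lower (adjusted p = 0.0494, 0.0199 and 0.0381).

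**Figure D3:**
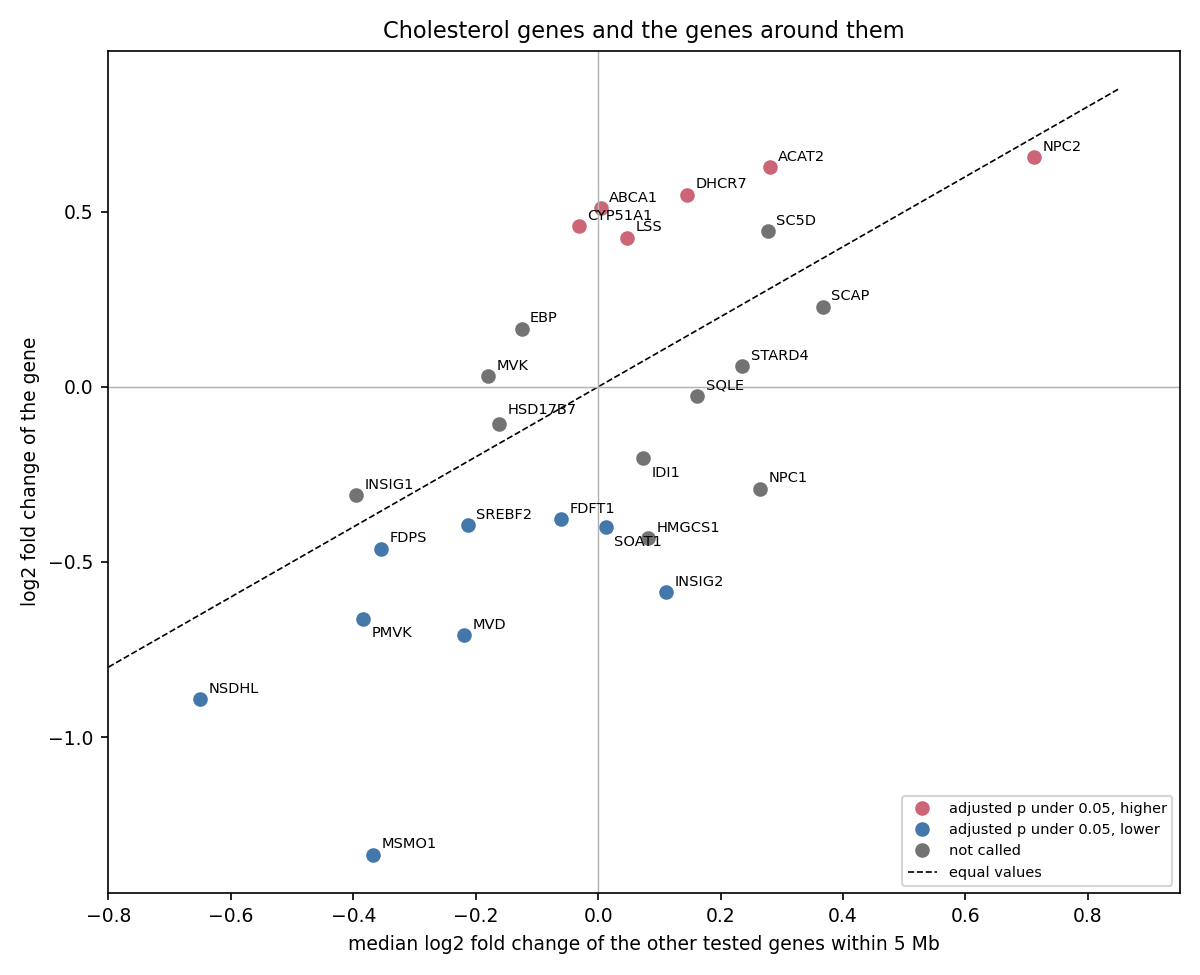
Log2 fold change of each tested cholesterol gene (vertical axis) against the median log2 fold change of the other tested genes within 5 Mb (horizontal axis); the dashed line marks equal values (red, called higher; blue, called lower; grey, not called). NPC2 lies close to the line at the upper right, NSDHL lies lowest of all in its surroundings, at -0.65, and MSMO1, MVD and INSIG2 lie well below it.

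The authors' deposited table holds their own comparison, which called 35.5% of 22870 genes. By the authors' deposited table, 6 members were higher, 10 lower and 12 not called, and ABCG1 had no value. Of the 15 members called here, 14 were called in the same direction in the authors' deposited table and 0 in the opposite one. LSS was the exception, at 0.38 on the log2 scale (adjusted p = 0.0628) in the authors' deposited table. HMGCS1 (-0.57, adjusted p = 0.0451) was called in the authors' deposited table only, and MYLIP, not tested here, was higher in the authors' deposited table (1.73, adjusted p = 7.82e-10). MSMO1 had the smallest adjusted p of the members in the authors' deposited table (log2 fold change -1.55, 2.07e-24).

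Genes next to the pathway also held calls in both directions, as did all genes tested (29.5% higher and 23.5% lower). Over 7 lists of neighbouring functions, 73 of 90 genes in the table were tested, and 27 rose and 14 fell. With 56.2% called, they were near the 52.9% of all genes, and no list was tested as a set. Of 15 genes of SREBP processing and sterol sensing, 8 rose and 0 fell, with a median log2 fold change of 0.33. The share called in either direction, 53.3%, was near that of the background. By direction it was unlike the background, as all of these calls were higher, against 29.5% higher and 23.5% lower. The sterol-binding protein gene TMEM97 had 2.60, 6.59 and 6.42 FPKM in sgControl, against 15.9, 14.6 and 14.9 FPKM in sgPLOD2, and rose by 1.46 on the log2 scale (adjusted p = 0.00425). Its groups were far apart, and the low sgControl replicate 1 added to the difference. With 1 library left out, the log2 fold change of TMEM97 was 1.10 to 1.64. The ubiquitin ligases RNF145 and RNF139 and the degradation factor FAF2, which act on sterol-regulated proteins of the endoplasmic reticulum, rose by 0.89, 0.55 and 0.56. The genes around RNF145 had a median of 0.61, and with local medians removed RNF145 was not called (0.28, adjusted p = 0.236). The protein that SREBF1 encodes shares this processing, and SREBF1 had 5.38 to 5.78 FPKM in sgControl and 4.53 to 5.17 FPKM in sgPLOD2, without a call (adjusted p = 0.191).

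Of 15 tested genes of sterol transfer and ester hydrolysis, 4 rose and 4 fell (53.3% called, against 52.9% of all genes). LIPA, the lysosomal acid lipase that frees cholesterol from esters, fell from 20.8 ± 2.79 to 12.7 ± 1.28 FPKM (SD, n = 3 in each group), a log2 fold change of -0.67 (limma adjusted p = 0.00379). The annotated span of LIPA overlaps IFIT1, IFIT2 and IFIT3 on the opposite strand, so reads may be shared. The oxysterol-binding protein genes OSBPL10 and OSBPL11 rose by 0.87 and 0.53, whereas OSBPL5 fell by 0.45. OSBPL11 was not called with chromosome medians or the GC and length trend removed (adjusted p = 0.153 and 0.121), nor OSBPL5 with that trend removed (0.0613). Of 5 tested lipoprotein receptor genes, 1 rose and 2 fell (60% called). SCARB1, the receptor that takes cholesterol esters from HDL, had 37.1, 34.8 and 34.2 FPKM against 9.04, 9.19 and 9.59 FPKM. Its groups lay far apart, with a log2 fold change of -1.82 ± 0.08 (adjusted p = 5.81e-06), which was larger in size than that of any tested cholesterol gene among the members. LRPAP1, a chaperone of such receptors, fell by 0.38. VLDLR had 2.96 ± 0.350 and 4.04 ± 0.109 FPKM and a log2 fold change of 0.35 (adjusted p = 0.0189), which was -0.24 with local medians removed and -0.17 after removal of the GC and length trend. VLDLR was not called without sgControl replicate 3 (0.0559) or sgPLOD2 replicate 2 (0.0665) or 3 (0.0555), or under quantile normalization (0.0884).

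Of 6 tested LXR and oxysterol genes, 2 rose and 3 fell (83.3% called, against 52.9% of all genes). The LXR receptor genes went apart: NR1H2 (LXR beta) fell from 27.7 ± 2.21 to 16.8 ± 1.07 FPKM and NR1H3 (LXR alpha) rose from 1.18 ± 0.185 to 2.11 ± 0.124 FPKM (adjusted p = 0.000998 and 0.00361). NR1H3 was not called with local medians removed (0.16, adjusted p = 0.213). HSD3B7, an enzyme that turns oxysterols into bile acid precursors, fell from 13.9 ± 0.859 to 3.51 ± 0.232 FPKM, a log2 fold change of -1.73 (adjusted p = 1.34e-05). The LXR target SMPDL3A fell by 0.60 (adjusted p = 0.00636), from 1.85, 1.06 and 1.35 FPKM to 0.605, 0.618 and 0.532 FPKM, and reached the mean of 1 FPKM only through sgControl. With a pseudocount of 0.1 its log2 fold change was -1.12, and with no filter its adjusted p was 0.0242. Of 14 genes on isoprenoid branches, 4 rose and 1 fell (35.7% called). PDSS2 and COQ2, which act in ubiquinone synthesis, rose by 0.84 and 0.78, and NUS1 (dolichol) and FNTB (protein farnesylation) by 0.54 and 0.84. FNTB lost its call without sgPLOD2 replicate 3 (0.0559), with no filter (0.0546) and with chromosome medians removed (0.30, 0.305). NUS1 lost its call with chromosome medians removed (0.20, 0.202) and after removal of the GC and length trend (0.15, 0.339). With local medians removed only COQ2 of these 4 was called (0.45, adjusted p = 0.0285).

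Of 6 tested genes of acetyl-CoA supply, 2 rose and 2 fell (66.7% called, against 52.9% of all genes). ACLY, the citrate lyase, had 45.4, 80.3 and 66.1 FPKM against 93.9, 98.7 and 105.7 FPKM and rose by 0.67 (adjusted p = 0.0242, or 0.0651 and 0.0790 without sgPLOD2 replicate 2 or 3). ACLY was also not called with no filter (0.0726) or with chromosome medians removed (0.0637). OXCT1, which activates ketone bodies, rose by 0.47 (not called after removal of the GC and length trend, 0.0737), while the acetyl-CoA synthetase gene ACSS2 and the citrate carrier gene SLC25A1 fell by 0.38 and 0.58. ACSS2 lost its call without sgPLOD2 replicate 2 (0.0523) and under TPM (0.0566). SLC25A1 lost its call with no filter (0.0782), quantile normalization (0.0635), chromosome medians removed (0.125) and the GC and length trend removed (-0.17, 0.469). SLC25A1 was also not called without sgControl replicate 1 (0.0545) or sgPLOD2 replicate 2 (0.0825), and ACLY, ACSS2 and SLC25A1 were not called with local medians removed (0.133, 0.303 and 0.155). Of 12 tested fatty acid synthesis genes, 6 rose and 2 fell (66.7% called), and 1 of the 6, LPIN1, reached the mean of 1 FPKM only through sgPLOD2. SCD, the desaturase, had 3.18 to 3.92 FPKM in sgControl and 68.4 to 75.0 FPKM in sgPLOD2, and ACACA, ME1 and GPAM rose by 1.01, 0.82 and 0.62. GPAM was not called after removal of the GC and length trend (0.18, adjusted p = 0.306).

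**Figure D4:**
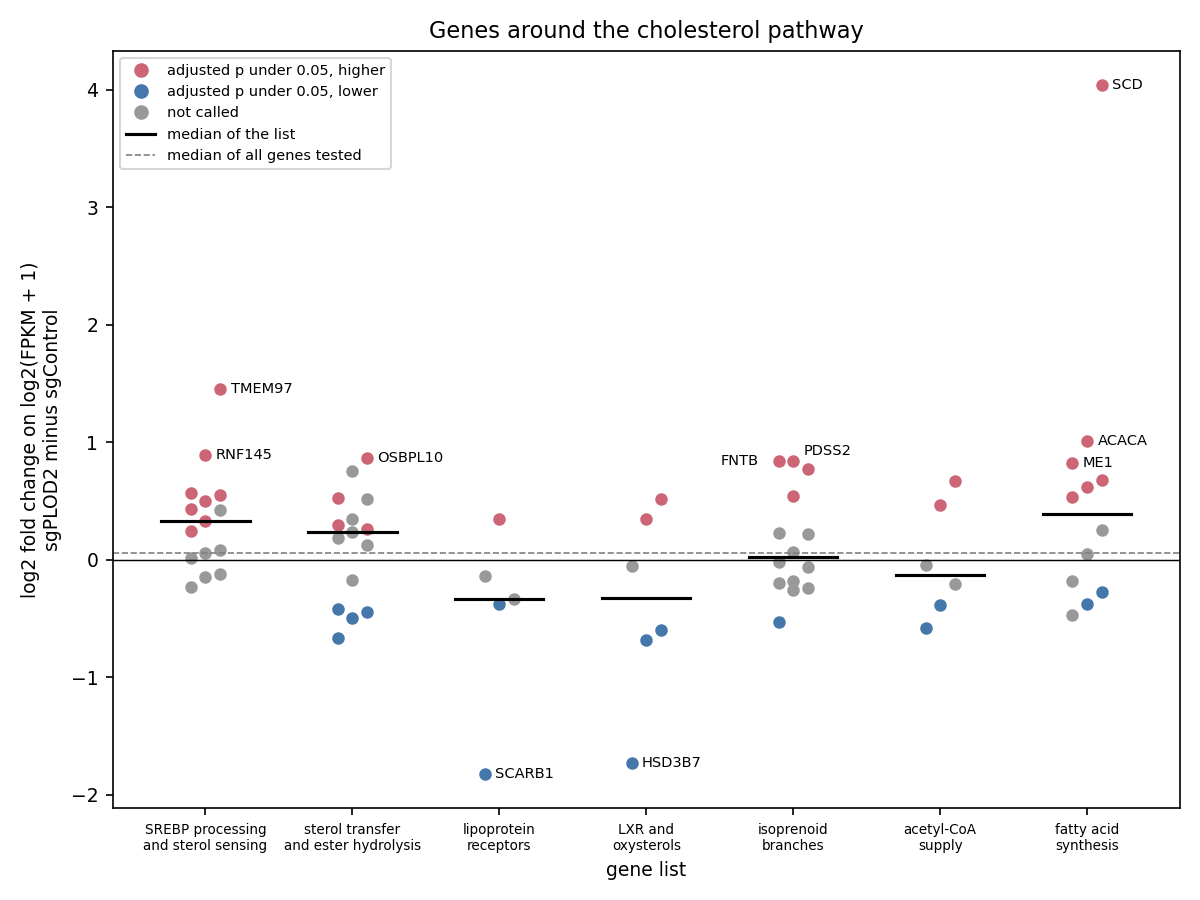
Log2 fold change, sgPLOD2 minus sgControl, of each tested gene in 7 lists around the cholesterol pathway (red, called higher; blue, called lower; grey, not called; bar, median of the list; dashed line, median of all genes tested). SCARB1 and HSD3B7 lie lowest, at -1.82 and -1.73, and TMEM97 lies at 1.46 in the sterol sensing list.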

How the data were processed

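RNA sequencing was used on 6 libraries of 786-O cells. The authors deposited 1 FPKM value per gene and library, per the file headers. The submitters' processing notes name CASAVA, HISAT2 2.1.0, StringTie 1.3.4 and GRCh38 and give no roles. For counting, strand and annotation, nothing is given in the sources used here, so reads of overlapping genes may be shared. The authors' deposited table also holds their own comparison: per the file headers these are a mean normalized signal, log2 fold changes and their standard errors, a score for the test, and raw and adjusted p-values. Its tool is not named.

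The limma package (3.58.1, R 4.3.3; eBayes with an intensity trend, 2-sided) was applied to log2(FPKM + 1) of the 10469 genes whose mean over 6 libraries reached 1 FPKM. No scaling between libraries was added. Fold changes are sgPLOD2 minus sgControl and understate changes of low genes. The targeted gene also had an exact permutation test (scipy 1.17.1). The procedure was tested on simulated data with independent noise. Such data cannot show how it handles regional shifts of expression or libraries that share a culture. Positions came from GENCODE release 29 on GRCh38, where 19 of 29 members had the start given in the deposited table. Promoters came from RefSeq (GRCh38.p14).

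The members and gene lists were chosen with earlier results of these data known. All members are named, with PLOD2 and HIF1A as checks, and from each neighbouring list at most 4 called genes with the smallest adjusted p. SREBF1, LPIN1, TCP1, ISCA2, RMC1, IFIT1, IFIT2 and IFIT3 were named after values were seen. The alternatives tried were a pseudocount of 0.1 or 0.5, dropping the filter, a minimum of 5 FPKM, TPM, median-of-ratios scaling, quantile normalization, no trend, a replicate block, removal of chromosome medians or of a GC and length trend fitted with mgcv 1.9.3, and leaving out each library. Removal of medians within 5 Mb was added after seeing the data.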

Additional observations from a re-analysis of the deposited data

How the results depend on the processing

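Of the 15 called members, 5 were called in the same direction in each of the 18 alternatives that tested them: PMVK, MVD, MSMO1, INSIG2 and SOAT1, all lower. PLOD2 kept its call throughout. Members called higher numbered 3 with chromosome medians removed and 3 to 6 when 1 library was left out (3 without sgPLOD2 replicate 3), and members called lower 7 to 11. Over all genes, 1361 were called higher at a minimum of 5 FPKM, where 5689 were tested, against 3084. Among the neighbouring lists, 27 and 14 became 15 higher and 9 lower at that minimum, 15 higher and 19 lower after removal of the GC and length trend, and 16 higher and 18 lower with local medians removed. In the last 2 fits more of these genes were called lower than higher. The cause was not tested. The share of calls that were higher was 55.7% as planned, 66.8% under TPM, 49.9% under median-of-ratios scaling and 45.2% at the higher minimum, and the median of all genes was 0.06 as deposited and 0.20 under TPM. Against these medians the members' medians were -0.15 and -0.07. The members' median lay farther below that of all genes in some alternatives. It was -0.31 at the higher minimum (all genes -0.03) and -0.30 under quantile normalization (all genes 0.003). After removal of the GC and length trend it was -0.33 (all genes -0.003), with 5 members called higher and 11 lower. It was nearest to that of all genes with no filter on low values, at -0.07 (all genes 0.006).

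Log2 fold changes that turned sign belonged mostly to uncalled genes. Under TPM, SQLE was 0.10, and under quantile normalization SQLE was 0.0681, MVK -0.12 and STARD4 -0.12. Median-of-ratios scaling gave -0.0196 for MVK. Removal of chromosome medians gave -0.0731 for STARD4 and -0.10 for SCAP. Removal of local medians gave -0.18 for STARD4, -0.14 for SCAP, 0.0548 for HSD17B7, 0.0870 for INSIG1, and, among called genes, -0.0556 for NPC2 and -0.24 for VLDLR. The GC and length correction gave -0.41 for STARD4, and, among called genes, -0.0100 for ABCA1 and -0.17 for VLDLR. With 1 library left out, SQLE ranged from -0.16 to 0.15 and MVK from -0.0098 to 0.0841.

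With the replicate number as a block, 2984 genes were called higher and 2335 lower, and 6 members higher and 9 lower. DHCR7 was not called (adjusted p = 0.0624) and SC5D was called higher (0.0181). The labels do not say if same-numbered libraries share more than a number. Their deviations correlated at 0.0135, 0.135 and -0.0491. Of the sgControl libraries, replicate 2 correlated best with its own number and replicates 1 and 3 did not. These values cannot decide if there was a shared batch. Depth is unknown, and 3 libraries per group limit the precision.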

Other observations

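Some genes of the neighbouring lists lay under the filter of 1 FPKM and were not tested, although their groups did not overlap. They were chosen after their values were seen. CYP7B1, an oxysterol hydroxylase, was at 0.0438 FPKM in sgControl replicate 1, listed at 0 in the other sgControl libraries, and had 0.854, 0.703 and 0.711 FPKM in sgPLOD2. PLTP, the phospholipid transfer protein and an LXR target, had 0.482, 0.565 and 0.495 FPKM in sgControl, against 0.160, 0.116 and 0.144 FPKM in sgPLOD2. ACACB, the mitochondrial acetyl-CoA carboxylase, had 0.217, 0.406 and 0.273 FPKM against 0.644, 0.665 and 0.751 FPKM. OSBPL1A had 0.376, 0.409 and 0.474 FPKM against 0.178, 0.160 and 0.112 FPKM. The number of fragments behind these low values is unknown.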
